A study of Mus musculus with 6 samples.

Results

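A set of 10 genes of glucose uptake and glycolysis, Slc2a1, Hk1, Hk2, Gpi1, Pfkl, Pfkp, Aldoa, Pgk1, Pkm and Ldha, was described in 3 established mouse mammary cell lines. They were taken by symbol from the deposited expression table, and 10 of 10 were among its 11417 genes. GENCODE M21 places Slc2a1 on chromosome 4, Hk2 on 6, Gpi1, Aldoa and Ldha on 7, Pkm on 9, Hk1 and Pfkl on 10, Pfkp on 13 and Pgk1 on X. Each line, BC44, HC11 and C57MG, was untreated, grown on plastic and profiled as 2 poly(A) RNA libraries, 6 in all. All media held 10% serum. The base was RPMI with insulin at 5 µg/ml for BC44 and HC11, with EGF (epidermal growth factor, 10 ng/ml) for HC11 alone, and DMEM with insulin at 10 µg/ml for C57MG. RNA was taken 2 days after the cells were plated. The labels do not give the glucose content of the media, and because the medium changed with the line, effects of line and medium cannot be told apart. The labels do not say whether replicates came from separate cultures, so p-values measure the spread between libraries, which may be technical.

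Glycolysis splits glucose into pyruvate in the cytosol and yields ATP without oxygen. Glucose enters through facilitative transporters such as GLUT1, is trapped by hexokinase as glucose 6-phosphate, is committed by phosphofructokinase, and leaves as pyruvate through pyruvate kinase or as lactate through lactate dehydrogenase. Several steps have isoenzymes encoded by separate genes that differ in regulation and tissue distribution. Many of the genes are known targets of the hypoxia-inducible factor HIF-1 and of MYC. In the mammary gland glucose is also the precursor of milk lactose.

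Upstream sequences of 4 of the genes are shown because Hk2, Pgk1 and Ldha were lower in C57MG than in BC44 while Aldoa was higher. Each of them also has a window that overlaps no annotated exon and holds ACGTG, a form of the core recognised by HIF. Other forms of this core were not searched. The sequences are the 250 bases before a RefSeq transcription start (GRCm38.p6), 5′ to 3′ on the gene's strand, with ACGTG and its reverse complement CACGT in capitals. The submitters' processing notes name build mm9, so these coordinates are not those of the deposited table. A CACGTG hexamer, the E-box that MYC binds, contains both motifs and appears as 1 stretch.
Hk2, chr6:82774455-82774704, minus strand: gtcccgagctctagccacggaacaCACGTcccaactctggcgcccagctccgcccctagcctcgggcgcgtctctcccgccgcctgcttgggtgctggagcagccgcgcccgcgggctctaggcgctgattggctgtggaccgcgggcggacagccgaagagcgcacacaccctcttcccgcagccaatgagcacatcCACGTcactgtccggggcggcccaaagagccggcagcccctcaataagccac
Pgk1, chrX:106186850-106187099, plus strand: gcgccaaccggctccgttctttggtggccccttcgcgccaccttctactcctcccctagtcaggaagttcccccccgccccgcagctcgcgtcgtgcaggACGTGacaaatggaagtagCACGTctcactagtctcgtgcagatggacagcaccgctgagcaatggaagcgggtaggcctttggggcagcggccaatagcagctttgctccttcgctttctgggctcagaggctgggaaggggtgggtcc
Ldha, chr7:46845554-46845803, plus strand: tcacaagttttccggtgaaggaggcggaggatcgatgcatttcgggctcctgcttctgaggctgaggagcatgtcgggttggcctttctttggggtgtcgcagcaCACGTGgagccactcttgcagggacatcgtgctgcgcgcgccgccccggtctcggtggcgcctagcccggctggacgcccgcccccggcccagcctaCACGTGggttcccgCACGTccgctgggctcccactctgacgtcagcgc
Aldoa, chr7:126799255-126799504, minus strand: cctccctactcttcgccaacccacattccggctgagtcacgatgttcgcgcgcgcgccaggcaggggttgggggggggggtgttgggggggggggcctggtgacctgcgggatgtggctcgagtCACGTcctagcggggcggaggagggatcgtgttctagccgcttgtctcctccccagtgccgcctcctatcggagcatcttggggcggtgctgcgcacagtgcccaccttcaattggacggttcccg
RefSeq starts were found for 10 of 10 genes, with 15 windows. The motif was present on either strand in 7 of the 15 windows (46.7%) and at 6 of the 10 genes, against 16.6% of 32851 mouse promoter windows of the same length and 21.6% of the 11625 windows of genes in the deposited table. The windows of a gene can overlap, and 2 Aldoa windows hold the same site, which is thus counted for each. Ldha had 3 stretches in the window shown, beginning 145, 48 and 34 bases before the start, and 2 of the 3 were CACGTG. Hk2 had stretches beginning 226 and 52 bases before its start, and Pgk1 at 150 and 131 bases. No window of Hk1, Gpi1, Pfkl or Pfkp held ACGTG or CACGT, and whether they hold other forms of the HIF core was not searched. A match describes the sequence only, and binding was not measured.

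Expression was given as RPKM, reads scaled to gene length and to library size. The gene lengths and read totals used are not given in the sources used here, so levels of different genes compare only as far as these hold. Differences between lines also depend on the scaling between libraries, and quantile normalization changed some of them. The estimated depth, from the step sizes of low values, was 14050000 to 18360000 reads per library, and the gene with the fewest estimated reads, Hk2 in C57MG replicate 2, rested on 435. Replicates correlated at 0.9899 to 0.9955 across 10759 genes, and genes are not independent. Of 16 measured epithelial markers BC44 had 12 and HC11 had 16 at a mean of 1 RPKM or more, and C57MG had 2, where Epcam was at 0.949 and 0 RPKM. Krt18 and Cldn3 were at 0 in both BC44 libraries. Of 15 measured mesenchymal markers, BC44 had 8, HC11 had 8 and C57MG had 14 at a mean of 1 RPKM or more. The 15 summed to 367 to 423 RPKM in BC44, 301 to 358 in HC11 and 3397 to 3741 in C57MG. Vim, at 2708 and 2282 RPKM, made most of the C57MG sum. Of the 15, 12 were called higher in C57MG than in BC44 and 12 than in HC11. By contrast, 2 and 3 were called lower in C57MG, Postn and Snai2 in both contrasts and Dcn against HC11. The labelled cell type, mammary epithelial for all 3 lines, was thus not borne out by most of these markers in C57MG. The part of this marker difference in the results with C57MG was not tested. In bulk RNA, fewer cells expressing a gene and less RNA per cell cannot be told apart.

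Among the 10 genes, pyruvate kinase stood at the top and the hexokinases and Pfkp at the bottom of mean transcript levels in each line. In BC44 the order of mean RPKM was Pkm, Ldha, Pgk1, Aldoa, Gpi1, Pfkl, Slc2a1, Hk1, Hk2 and Pfkp. HC11 and C57MG kept the first 5 places, and both had Slc2a1 above Pfkl. Ldha and Pgk1 were neighbours whose libraries overlapped in HC11, met without overlap at 542 RPKM in BC44 and stood apart in C57MG. In HC11 the libraries of Hk1 and Hk2 overlapped, as did those of Hk2 and Pfkp. The 10 genes together held 1.01% and 1.04% of the summed RPKM in the BC44 libraries, 0.826% and 0.807% in HC11, and 0.866% and 0.889% in C57MG. Pkm alone was 43.2% to 56.0% of the sum of the 10 genes, depending on the library, and ranked from 3 to 17 among all listed genes.

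**Figure D1:**
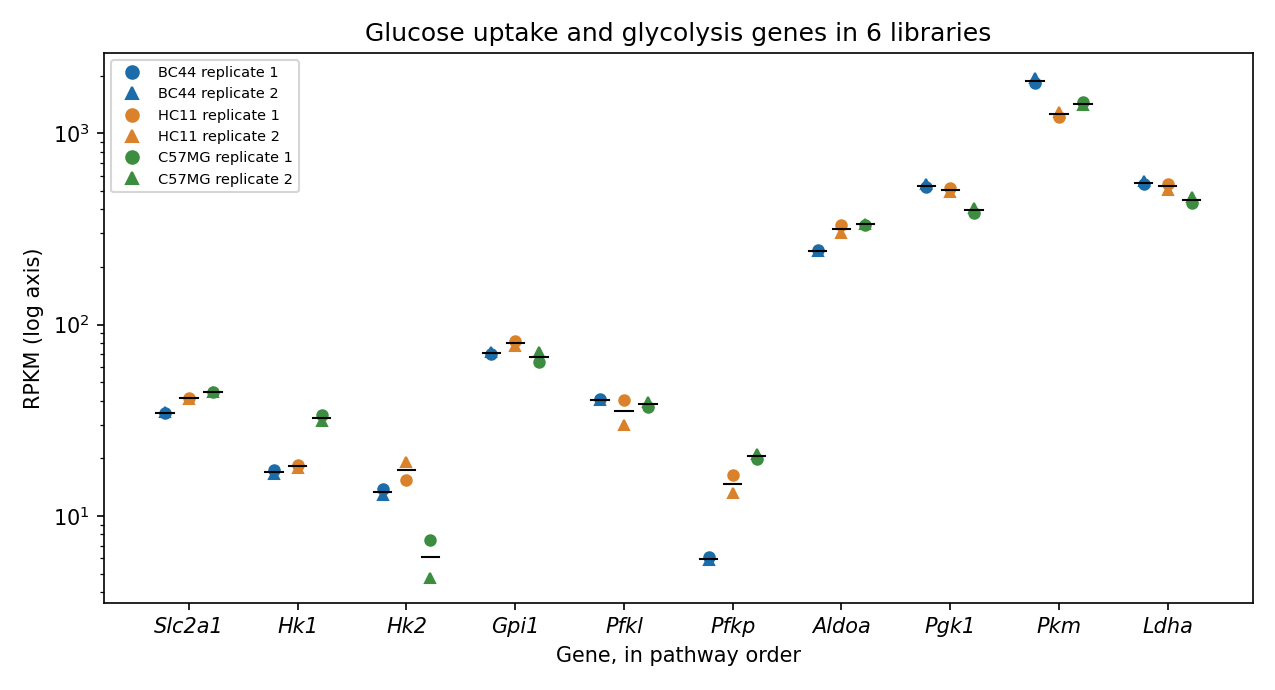
RPKM (log axis) of the 10 genes in pathway order; each point is 1 library, the colour is the line, the shape the replicate, and the bar the mean of 2 libraries. Hk1 is highest and Hk2 lowest in C57MG, Pfkp is lowest in BC44 (5.88 and 6.07 RPKM), and Pkm is at 1222 RPKM or more in every library.

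Slc2a1 encodes GLUT1, the basal glucose transporter of most cells. Its level was 34.4 and 34.97 RPKM in the BC44 libraries, 41.5 and 40.9 in HC11, and 44.5 and 44.2 in C57MG. No libraries of different lines overlapped, and replicates agreed within 1.02-fold. Differences are given as log2 fold changes on the log2(RPKM + 1) scale, which understates those of low genes, with p-values adjusted over all tested genes. C57MG was 1.28-fold above BC44 (log2 fold change of BC44 against C57MG -0.35, SE 0.07, limma adjusted p = 0.00299). HC11 was 1.19-fold above BC44 (-0.24, SE 0.07, adjusted p = 0.0254), and HC11 against C57MG did not pass (-0.10, 95% interval -0.27 to 0.06, adjusted p = 0.218). The HC11 call was lost when any 1 library other than HC11 replicate 2 was left out, at adjusted p = 0.0871 without BC44 replicate 1, 0.0657 without BC44 replicate 2, 0.0581 and 0.0582 without C57MG replicates 1 and 2, and 0.0588 without HC11 replicate 1.

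Of the 2 hexokinase genes, Hk1 was highest and Hk2 lowest in C57MG. Hk1, the widely expressed hexokinase bound to mitochondria, was at 17.4 and 16.6 RPKM in BC44, at 18.5 and 17.7 in HC11 and at 33.7 and 31.2 in C57MG. C57MG was 1.91-fold above BC44 (log2 fold change -0.89, SE 0.08, adjusted p = 4.58e-05) and 1.79-fold above HC11 (-0.80, SE 0.08, adjusted p = 9.19e-05). BC44 and HC11 differed by -0.09 (95% interval -0.29 to 0.11, adjusted p = 0.424). Hk2, the insulin- and hypoxia-responsive form typical of muscle and tumour cells, was at 13.75 and 12.8 RPKM in BC44, at 15.5 and 19.1 in HC11 and at 7.46 and 4.76 in C57MG. Both C57MG libraries were thus below all others. BC44 was 2.17-fold above C57MG (log2 fold change 1.03, SE 0.19, adjusted p = 0.00165) and HC11 2.83-fold (1.38, SE 0.19, adjusted p = 0.000367). HC11 was nominally 1.30-fold above BC44, which did not pass (-0.35, 95% interval -0.79 to 0.09, adjusted p = 0.162). The C57MG replicates of Hk2 differed 1.57-fold. Without C57MG replicate 2 the log2 fold change of BC44 against C57MG was 0.75, and without BC44 replicate 1 it was 0.98, both still passing (adjusted p = 0.00715 and 0.0188).

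Within each library Hk1 and Hk2 can be set against each other without the scaling between libraries, though the gene lengths used still enter. Hk2 made up 44.1% and 43.6% of their summed RPKM in BC44 and 45.5% and 51.9% in HC11, against 18.15% and 13.25% in C57MG. The C57MG shares lay below every BC44 and HC11 share. The sum of both genes moved less, at 31.2 and 29.4 RPKM in BC44, at 34.0 and 36.9 in HC11 and at 41.1 and 35.9 in C57MG, where the HC11 and C57MG libraries overlapped. These shares were not tested. Hk3 and Hkdc1 were not listed under these symbols in the deposited table.

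Genes typical of another line had low values above 0 in some libraries, and the source of these was not tested. Vim, a mesenchymal gene, reached 0.609% (BC44 replicate 1) and 1.98% (BC44 replicate 2) of its mean in C57MG, and Epcam reached 0.903% of its BC44 mean in C57MG replicate 1. The same shares of the C57MG mean amount to 0.405 of the 5.88 RPKM of Pfkp and 0.642 of the 16.6 RPKM of Hk1 in BC44 replicate 2, and that of the BC44 mean to 0.120 of the 7.46 RPKM of Hk2 in C57MG replicate 1.

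Gpi1 encodes glucose-6-phosphate isomerase, the step between hexokinase and phosphofructokinase. It was at 70.0 and 71.6 RPKM in BC44, at 82.1 and 77.3 in HC11 and at 63.7 and 71.5 in C57MG. The HC11 libraries were the highest, and those of BC44 and C57MG overlapped. HC11 was 1.18-fold above C57MG (log2 fold change 0.24, SE 0.08, limma adjusted p = 0.0356), a call that passed in 8 of 15 alternative analyses. It was lost without BC44 replicate 1 (adjusted p = 0.0545), BC44 replicate 2 (0.0546), C57MG replicate 1 (0.233) or HC11 replicate 1 (0.126). The contrasts of BC44 with HC11 (-0.17, 95% interval -0.36 to 0.03) and with C57MG (0.07, -0.13 to 0.26) did not pass. Gpi1 shares 741 exonic bases with Gm26762 on the opposite strand in GENCODE M21. Gm26762 was not listed in the deposited table, and its part in the Gpi1 values was not tested.

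The phosphofructokinase genes differed in which of them varied. Pfkl, the liver-type subunit, was at 40.6 and 40.5 RPKM in BC44, at 40.3 and 30.03 in HC11 and at 36.9 and 39.6 in C57MG, and passed in no contrast (adjusted p = 0.216 for BC44 against HC11, and 0.589 and 0.391 for these lines against C57MG). The HC11 replicates differed 1.34-fold. Without HC11 replicate 1, Pfkl passed in BC44 against HC11 (0.42, adjusted p = 0.0126) and HC11 against C57MG (-0.34, adjusted p = 0.0163), and without HC11 replicate 2 the latter turned to 0.07. Pfkp, the platelet-type subunit, was at 6.07 and 5.88 RPKM in BC44, at 16.4 and 13.1 in HC11 and at 19.9 and 21.02 in C57MG. The 3 lines did not overlap, and Pfkp was the only one of the 10 genes that passed in all 3 contrasts, as did 26.8% of all tested genes. BC44 was below HC11 by 2.47-fold (log2 fold change -1.17, SE 0.12, adjusted p = 0.000187) and below C57MG by 3.42-fold (-1.62, SE 0.12, adjusted p = 1.06e-05). HC11 was below C57MG by 1.39-fold (-0.45, SE 0.12, adjusted p = 0.00965), which was lost without C57MG replicate 2 (-0.41, adjusted p = 0.0705).

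Pfkm, the muscle-type subunit and not one of the 10 genes, completed the set at 22.5 and 17.8 RPKM in BC44, at 16.4 and 11.8 in HC11 and at 39.3 and 39.5 in C57MG. It was higher in C57MG than in BC44 (-0.94, limma adjusted p = 0.00123) and HC11 (-1.44, adjusted p = 0.000138). Pfkm was also higher in BC44 than in HC11 (0.49, adjusted p = 0.0387), a call that held in 10 of 15 alternatives. Pfkp was 8.77% and 9.16% of the summed RPKM of the 3 subunits in BC44 and 22.4% and 23.9% in HC11, against 20.7% and 21% in C57MG. Pfkl was the leading subunit in BC44 (58.7% and 63.1%) and HC11 (55.2% and 54.6%), while in C57MG Pfkl (38.4% and 39.6%) and Pfkm (40.9% and 39.4%) overlapped. The 3 subunits summed to 96.1 and 100.1 RPKM in C57MG, above the 69.2 and 64.2 of BC44 and the 73.0 and 55.0 of HC11. Pfkp shares 748 exonic bases, 5.58% of its exons, with Pitrm1 on the opposite strand in GENCODE M21, and whether reads were counted by strand is not given in the sources used here. Pitrm1 was at 32.0 and 35.5 RPKM in BC44, at 43.5 and 45.4 in HC11 and at 32.0 and 29.9 in C57MG. Like Pfkp it was higher in both HC11 libraries than in both BC44 libraries, while its BC44 and C57MG libraries overlapped by a narrow margin, and its part in the Pfkp values was not tested.

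**Figure D2:**
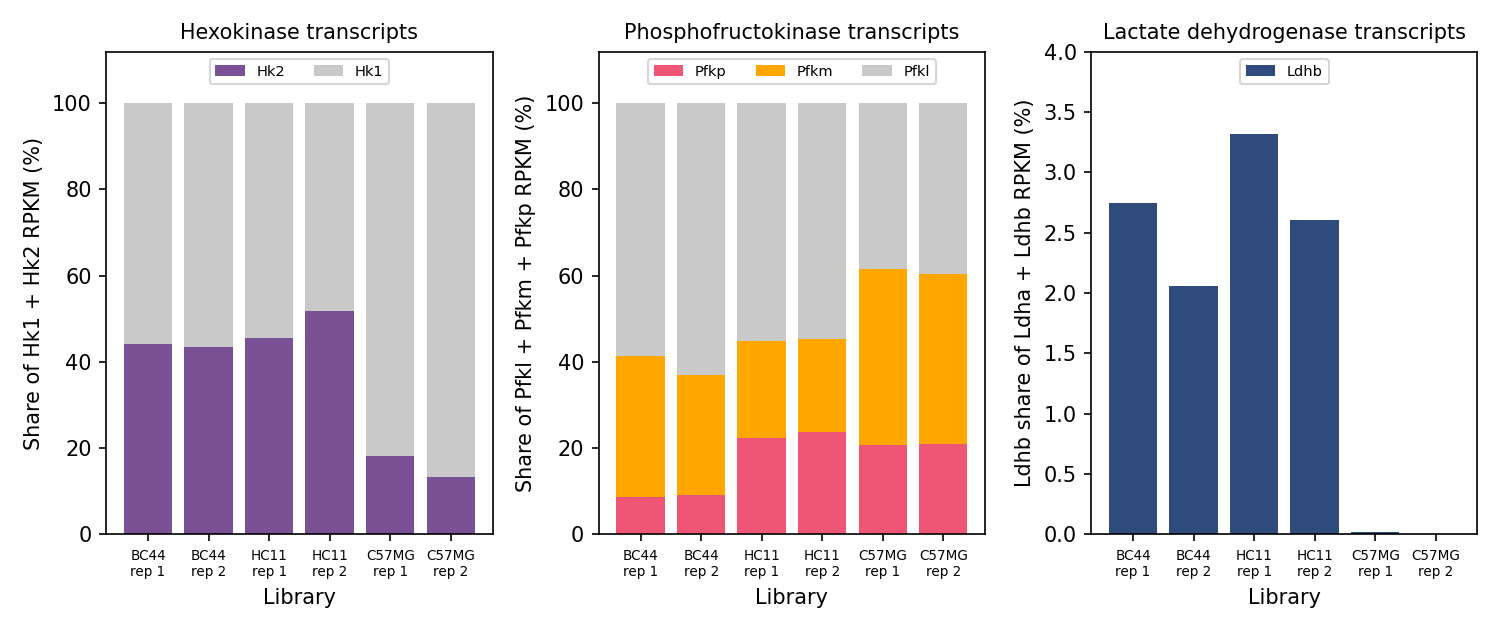
Share (%) of the summed RPKM held by each gene of an enzyme, per library; left, Hk1 and Hk2; middle, Pfkl, Pfkm and Pfkp; right, Ldhb of Ldha and Ldhb on an axis ending at 4%. Hk2 is at 43.6% or more in BC44 and HC11 and at 18.15% or less in C57MG, and Pfkp is 9.16% or less in BC44 and 20.7% or more elsewhere.

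Aldoa, the main aldolase outside liver, was lower in BC44 than in the other lines. It was at 244 and 242 RPKM in BC44, at 329 and 299 in HC11 and at 333 and 336 in C57MG, with no overlap between lines. HC11 was 1.29-fold above BC44 (log2 fold change -0.37, SE 0.08, limma adjusted p = 0.00603) and C57MG 1.38-fold (-0.46, SE 0.08, adjusted p = 0.00104). After quantile normalization the difference from HC11 was -0.22 (adjusted p = 0.0337). HC11 and C57MG differed by -0.09 (95% interval -0.27 to 0.09, adjusted p = 0.316), and after quantile normalization this difference passed (-0.35, adjusted p = 0.00299). Slc2a1 and Pfkp were the other genes called lower in BC44 in both contrasts.

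Pgk1, which encodes the first ATP-forming enzyme of the pathway, and Ldha, which turns pyruvate into lactate, were lowest in C57MG. Pgk1 was at 524 and 542 RPKM in BC44, at 518 and 493 in HC11 and at 383 and 406 in C57MG. BC44 was 1.35-fold above C57MG (log2 fold change 0.43, SE 0.08, adjusted p = 0.00140) and HC11 1.28-fold (0.36, SE 0.08, adjusted p = 0.00388). The HC11 difference was lost without C57MG replicate 1 (0.315, adjusted p = 0.0504) and after quantile normalization (0.08, adjusted p = 0.365). Ldha was at 542 and 559 RPKM in BC44, at 545 and 508 in HC11 and at 430 and 466 in C57MG, so the BC44 and HC11 libraries overlapped and both C57MG libraries lay below them.

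For Ldha, BC44 was 1.23-fold above C57MG (log2 fold change 0.30, SE 0.08, limma adjusted p = 0.0123), which was lost without BC44 replicate 2 (0.27, adjusted p = 0.0730) and without C57MG replicate 1 (0.24, adjusted p = 0.119). HC11 was 1.175-fold above C57MG (0.23, SE 0.08, adjusted p = 0.0347), but quantile normalization turned this to -0.04 (adjusted p = 0.690), and the call held in 6 of 15 alternatives. Leaving out a library ended it at adjusted p = 0.0619 and 0.0620 without BC44 replicates 1 and 2, 0.239 and 0.0729 without C57MG replicates 1 and 2, and 0.0979 without HC11 replicate 1. BC44 against HC11 did not pass for Pgk1 (0.08, 95% interval -0.10 to 0.25) or Ldha (0.06, -0.13 to 0.26), though the Pgk1 libraries of these lines did not overlap. After quantile normalization Pgk1 and Ldha both passed (0.23 and 0.25, adjusted p = 0.0443 and 0.0378).

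Ldhb, the heart-type lactate dehydrogenase gene that favours the reverse reaction, differed most among the other glycolytic enzymes tested. It was at 15.3 and 11.8 RPKM in BC44, 18.7 and 13.6 in HC11, and 0.106 (replicate 1) and 0 (replicate 2) in C57MG (limma adjusted p = 1.23e-06 for BC44 and 1.10e-06 for HC11 against C57MG). The 0.106 RPKM in C57MG replicate 1 was 0.784% of the BC44 mean, close to the 0.836% of Krt5 and 0.803% of Dsp in that library. Ldhb was 2.06% to 3.31% of the summed Ldha and Ldhb RPKM in BC44 and HC11.

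Pkm encodes the muscle-type pyruvate kinase, whose M1 and M2 splice forms these gene-level values do not separate. It was at 1827 and 1943 RPKM in BC44, at 1222 and 1295 in HC11 and at 1447 and 1411 in C57MG, with no overlap between lines. BC44 was 1.498-fold above HC11 (log2 fold change 0.58, SE 0.08, limma adjusted p = 0.00112), a difference that passed in 15 of 15 alternatives. BC44 was 1.32-fold above C57MG (0.40, SE 0.08, adjusted p = 0.00353), which was lost after quantile normalization (0.32, adjusted p = 0.141) and without C57MG replicate 2 (0.38, adjusted p = 0.0532). HC11 against C57MG did not pass (-0.18, 95% interval -0.38 to 0.01, adjusted p = 0.0843), and without HC11 replicate 2 (-0.23, adjusted p = 0.0459) or with robust variance (adjusted p = 0.04595) it did. Quantile normalization moved it to -0.40, which did not pass (adjusted p = 0.0787). The ratio of Pkm to the summed hexokinases was 58.6 and 66.1 in BC44, above the 35.9 and 35.1 of HC11 and the 35.2 and 39.3 of C57MG. Pkm shares 767 exonic bases, 15.34% of its exons, with Gm49759 on the same strand in GENCODE M21, so counting by strand would not separate them. Gm49759 was not listed in the deposited table, and its part in the Pkm values was not tested. Slc2a1, Hk1 and Aldoa had smaller exonic overlaps, all on the opposite strand. Several genes of the pathway, Pgk1, Ldha and Pkm among them, have processed pseudogenes in mouse, and how shared reads were assigned is not given in the sources used here.

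Between BC44 and HC11, 4 of the 10 genes had an adjusted p-value under 0.05, where 47.7% of all 10759 tested genes did. Pkm was higher in BC44 (24.7% of all genes were called higher there), and Slc2a1, Pfkp and Aldoa were higher in HC11 (23.0%). Pfkp was the 1 gene at least 2-fold apart on the log2 scale, against 12.5% of all genes. The median absolute log2 fold change of the 10 was 0.23, against 0.30 over all genes. The libraries of the lines did not overlap for 9 of the 10, Ldha being the exception, as for 73.0% of all genes.

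Between BC44 and C57MG 8 of 10 were called, where 71.7% of all genes were. Hk2, Pgk1, Pkm and Ldha were higher in BC44 (37.5% of all genes) and Slc2a1, Hk1, Pfkp and Aldoa in C57MG (34.1%). Hk2 and Pfkp were at least 2-fold apart, against 29.8% of all genes, and without BC44 replicate 1 or C57MG replicate 2 only Pfkp was. The median absolute change was 0.42, against 0.57 over all genes. Libraries did not overlap for 9 of 10, all but Gpi1, and for 87.9% of all genes.

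Between HC11 and C57MG 6 of 10 were called, against 70.5% of all genes. Hk2, Gpi1, Pgk1 and Ldha were higher in HC11 (37.4% of all genes), with Ldha reversing under quantile normalization, and Hk1 and Pfkp were higher in C57MG (33.2%). Without C57MG replicate 1 the count was 3. Hk2 was the 1 gene at least 2-fold apart, where 27.0% of all genes were, and the median absolute change was 0.23 against 0.53. Libraries did not overlap for 9 of 10, all but Pfkl, and for 86.2% of all genes. The counts of 4, 8 and 6 of 10 lay on both sides of the shares of the whole table, and nothing particular to the 10 genes is read from them. Each line served in 2 contrasts, so the contrasts share libraries.

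**Figure D3:**
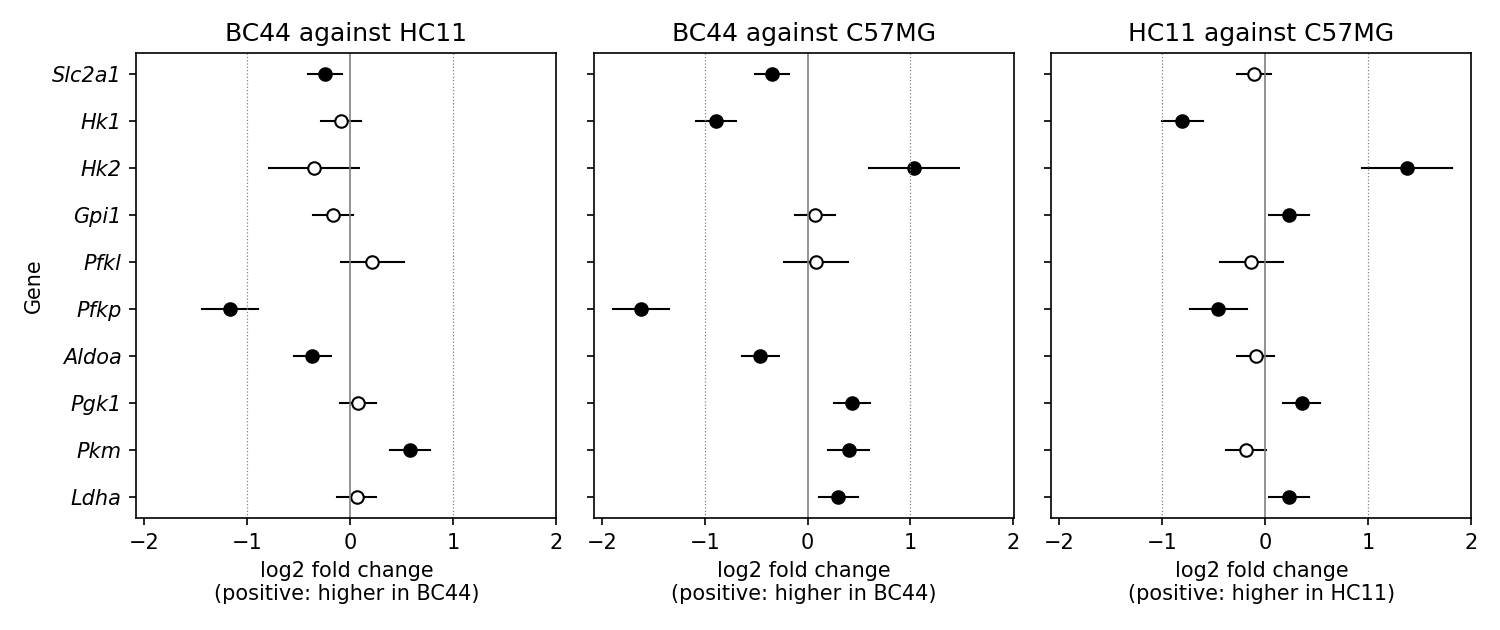
Log2 fold changes on the log2(RPKM + 1) scale with 95% intervals from limma, 1 panel per contrast; filled points have an adjusted p-value under 0.05, and dotted lines mark a 2-fold difference. Points past the dotted lines are Pfkp in BC44 against HC11 (-1.17), Pfkp and Hk2 in BC44 against C57MG (-1.62 and 1.03) and Hk2 in HC11 against C57MG (1.38).

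Other glycolytic enzymes went in both directions. Beside the counts of each list stand the shares called over all tested genes, 47.7% between BC44 and HC11, and 71.7% (BC44) and 70.5% (HC11) against C57MG. Of the 17 on this list, 8 were found by symbol in the deposited table and all 8 were tested. Of these, 6 differed between BC44 and HC11, 4 of them with the higher level in BC44. C57MG differed from BC44 in 7, of which BC44 had the higher level in 4, and from HC11 in 6, of which HC11 had the higher level in 3. Tpi1, triosephosphate isomerase, was at 188 and 191 RPKM in BC44, at 243 and 218 in HC11 and at 300 and 287 in C57MG, and was lower in BC44 than in C57MG (-0.63, adjusted p = 0.000247). Pgam1, phosphoglycerate mutase, ran the other way, at 182 and 199 RPKM in BC44, at 172 and 178 in HC11 and at 139 and 127 in C57MG (0.52 for BC44 against C57MG, adjusted p = 0.000833). Gapdh, often used as a reference gene, was at 585 and 606 RPKM in BC44, at 699 and 687 in HC11 and at 620 and 605 in C57MG. It was higher in HC11 than in BC44 (-0.22, adjusted p = 0.0423), a call that held in 4 of 15 alternatives and was lost on leaving out any 1 of the 6 libraries (adjusted p = 0.184 and 0.109 without BC44 replicates 1 and 2, 0.0635 and 0.0504 without HC11 replicates 1 and 2, 0.111 and 0.112 without C57MG replicates 1 and 2). Against C57MG, Gapdh gave -0.04 in BC44 (adjusted p = 0.642) and 0.18 in HC11 (0.0605), the latter turning to -0.12 under quantile normalization. Eno3, the muscle enolase, was at 10.9 and 8.01 RPKM in BC44, at 6.10 and 7.38 in HC11 and at 22.6 and 22.5 in C57MG (-1.19 and -1.61 against C57MG, adjusted p = 0.000216 and 4.68e-05). Eno1, Eno2 and Aldoc were not listed under these symbols in the deposited table.

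Of 18 listed transporters and lactate carriers 6 were found by symbol in the deposited table and 5 were tested. By limma 0 were called between BC44 and HC11, where 1 had an unadjusted p under 0.05 (Emb, adjusted p = 0.0650). Against C57MG, 4 were lower in BC44 and 3 lower in HC11. Slc16a1, the lactate carrier MCT1, was at 28.0 to 37.7 RPKM in the 6 libraries and passed in no contrast (adjusted p = 0.4349, 0.214 and 0.05375). Between HC11 and C57MG (0.28) Slc16a1 passed with the replicate block (adjusted p = 0.04998), with only the 4 libraries compared (0.0394), and without BC44 replicate 1 (0.0390) or 2 (0.0394). Its chaperone Bsg was at 265 and 261 RPKM in BC44, at 266 and 278 in HC11 and at 318 and 312 in C57MG, and was higher in C57MG than in BC44 (-0.26, adjusted p = 0.0116). That call was lost without BC44 replicate 2 (adjusted p = 0.0559), C57MG replicate 1 (0.0828) or C57MG replicate 2 (0.0623). Embigin (Emb), a relative of Bsg that also escorts lactate carriers, was at 159 and 143 RPKM in BC44, at 132 and 113 in HC11 and at 316 and 368 in C57MG (-1.17 and -1.47 against C57MG, adjusted p = 5.22e-05 and 1.79e-05). Slc2a9, a urate and hexose transporter, was at 0.202 and 0.282 RPKM in BC44, at 0.307 and 0.398 in HC11 and at 2.06 and 2.18 in C57MG. Slc2a8 was at 1.45 to 3.67 RPKM in the 6 libraries and passed only in BC44 against C57MG (-0.66, adjusted p = 0.03002), a call lost without BC44 replicate 2 (adjusted p = 0.190), C57MG replicate 1 (0.0677) or C57MG replicate 2 (0.129). Slc2a3 and Slc16a3 were not listed under these symbols in the deposited table.

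Some regulators of the flux were near 0 in 1 or 2 of the lines. Of 10 tested regulators, 5 were called in BC44 against HC11, and 8 and 5 in these lines against C57MG. Fbp2, a gluconeogenic fructose bisphosphatase, was at 10.5 and 8.78 RPKM in BC44, at 0.325 and 0.685 in HC11 and at 0.084 and 0 in C57MG (adjusted p = 8.13e-06 and 8.34e-07 for BC44 against HC11 and C57MG). Arrdc4, an arrestin-family relative of Txnip that restrains glucose uptake, was at 0.703 and 0.417 RPKM in BC44, 6.78 and 7.996 in HC11, and listed at 0 in both C57MG libraries. G6pc3, the ubiquitous glucose-6-phosphatase, was at 4.30 and 2.99 RPKM in BC44, 15.3 in both HC11 libraries, and 16.8 and 16.3 in C57MG (-1.83 and -1.93 for BC44, adjusted p = 4.78e-05 and 1.05e-05). RNA of G6pc3 was thus lowest in BC44, while that of Fbp2 was highest there, and enzyme activity and flux were not measured.

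Pyruvate carboxylase was higher in C57MG, and regulators of pyruvate dehydrogenase went in both directions. Of 13 tested genes of pyruvate entry, 3 were called between BC44 and HC11, 10 between BC44 and C57MG and 9 between HC11 and C57MG. Pcx, pyruvate carboxylase, was at 2.51 and 2.47 RPKM in BC44, at 3.71 and 3.22 in HC11 and at 29.1 and 31.6 in C57MG (-3.16 and -2.81 against C57MG, adjusted p = 3.05e-07 and 5.38e-07). Pdp1, which activates pyruvate dehydrogenase, was at 2.66 and 2.65 RPKM in BC44, at 3.37 and 2.91 in HC11 and at 18.5 and 18.3 in C57MG (-2.41 and -2.23, adjusted p = 7.36e-07 and 1.26e-06). Pdk2, a kinase that inhibits the same complex, was at 1.38 and 0.906 RPKM in BC44, at 0.698 and 0.552 in HC11 and at 3.57 and 4.78 in C57MG (-1.27 and -1.66, adjusted p = 0.000208 and 5.38e-05). Of the other tested regulators, named after their values were seen, the kinase Pdk1 was also higher in C57MG (-1.53 for BC44 and -1.60 for HC11, adjusted p = 9.64e-05 and 8.59e-05). The kinase Pdk3 was lower there (0.38 and 0.50, adjusted p = 0.00358 and 0.000836), as was the activator Pdp2 (0.64 and 0.73, adjusted p = 0.000838 and 0.000453).

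In the pentose phosphate pathway, which branches at glucose 6-phosphate and makes NADPH, 5 of 10 tested genes were called between BC44 and HC11, 8 between BC44 and C57MG and 9 between HC11 and C57MG. Pgd was at 58.3 and 63.3 RPKM in BC44, at 40.2 and 39.3 in HC11 and at 96.3 and 97.6 in C57MG, and H6pd at 7.77 and 6.69, 6.29 and 4.145, and 27.5 and 23.6 RPKM in the same order of lines. Both dehydrogenases were higher in C57MG than in HC11 (-1.27 and -2.11, adjusted p = 4.42e-06 and 2.68e-05), and Pgls, a lactonase of the pathway, was lower there (1.13, adjusted p = 0.000378). Of 8 tested glycogen genes 3, 7 and 5 were called. Ugp2, which makes UDP-glucose, was at 88.8 and 86.4 RPKM in BC44, at 42.0 and 38.2 in HC11 and at 63.3 and 64.3 in C57MG. Gyg, the glycogen primer, was at 14.6 and 13.0, 12.3 and 13.0, and 4.67 and 5.70 RPKM in the same order of lines.

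Hif1a, the transcript of the HIF-1 alpha subunit, was at 42.4 and 46.1 RPKM in BC44, at 38.4 and 46.9 in HC11 and at 43.5 and 42.8 in C57MG, with overlap between all lines and no call (adjusted p = 0.693, 0.792 and 0.859). HIF-1 activity is set mainly at the protein level, which was not measured. Epas1, the HIF-2 alpha subunit, was at 1.055 and 1.315 RPKM in HC11 and listed at 0 in the other 4 libraries. Egln3, a prolyl hydroxylase that marks HIF alpha subunits for destruction and is itself HIF-induced, was at 0.051 and 0.409 RPKM in BC44, at 14.5 and 11.9 in HC11 and at 25.6 and 23.8 in C57MG (adjusted p = 4.78e-06 and 4.22e-07 for BC44 against HC11 and C57MG). Myc was at 65.4 and 75.8 RPKM in BC44, at 70.5 and 86.4 in HC11 and at 37.5 and 28.0 in C57MG, lower in C57MG than in BC44 (1.10, adjusted p = 0.000478) and HC11 (1.24, adjusted p = 0.000263). Across the regulators 3, 7 and 7 of 11 tested genes were called.

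Hypoxia-response genes outside glycolysis had no common direction. Of 15 tested, 9 were called in each contrast, with 4 higher in the first-named line and 5 in the second each time, where 47.7% of all tested genes were called between BC44 and HC11, and 71.7% (BC44) and 70.5% (HC11) against C57MG. Vegfa was at 13.0 and 11.8 RPKM in BC44, at 46.3 and 54.3 in HC11 and at 8.22 and 8.82 in C57MG, so it was highest in HC11 (-1.93 for BC44 against HC11, adjusted p = 1.05e-05). Car12, a carbonic anhydrase, was at 42.3 and 47.8 RPKM in BC44, at 10.2 and 8.21 in HC11 and at 0.475 and 0 in C57MG. Bnip3l, a mitophagy receptor, was at 11.1 and 11.2 RPKM in BC44, at 31.3 and 32.2 in HC11 and at 43.9 and 46.6 in C57MG (-1.43 and -1.93 for BC44, adjusted p = 1.04e-05 and 5.82e-07). Each of these 3 genes thus had another line at its highest level. Over all 8 lists, which hold 117 genes of which 80 were tested, 34 (42.5%) were called in BC44 against HC11, and 60 (75%) and 53 (66.2%) in these lines against C57MG, close to those shares of all tested genes.

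**Figure D4:**
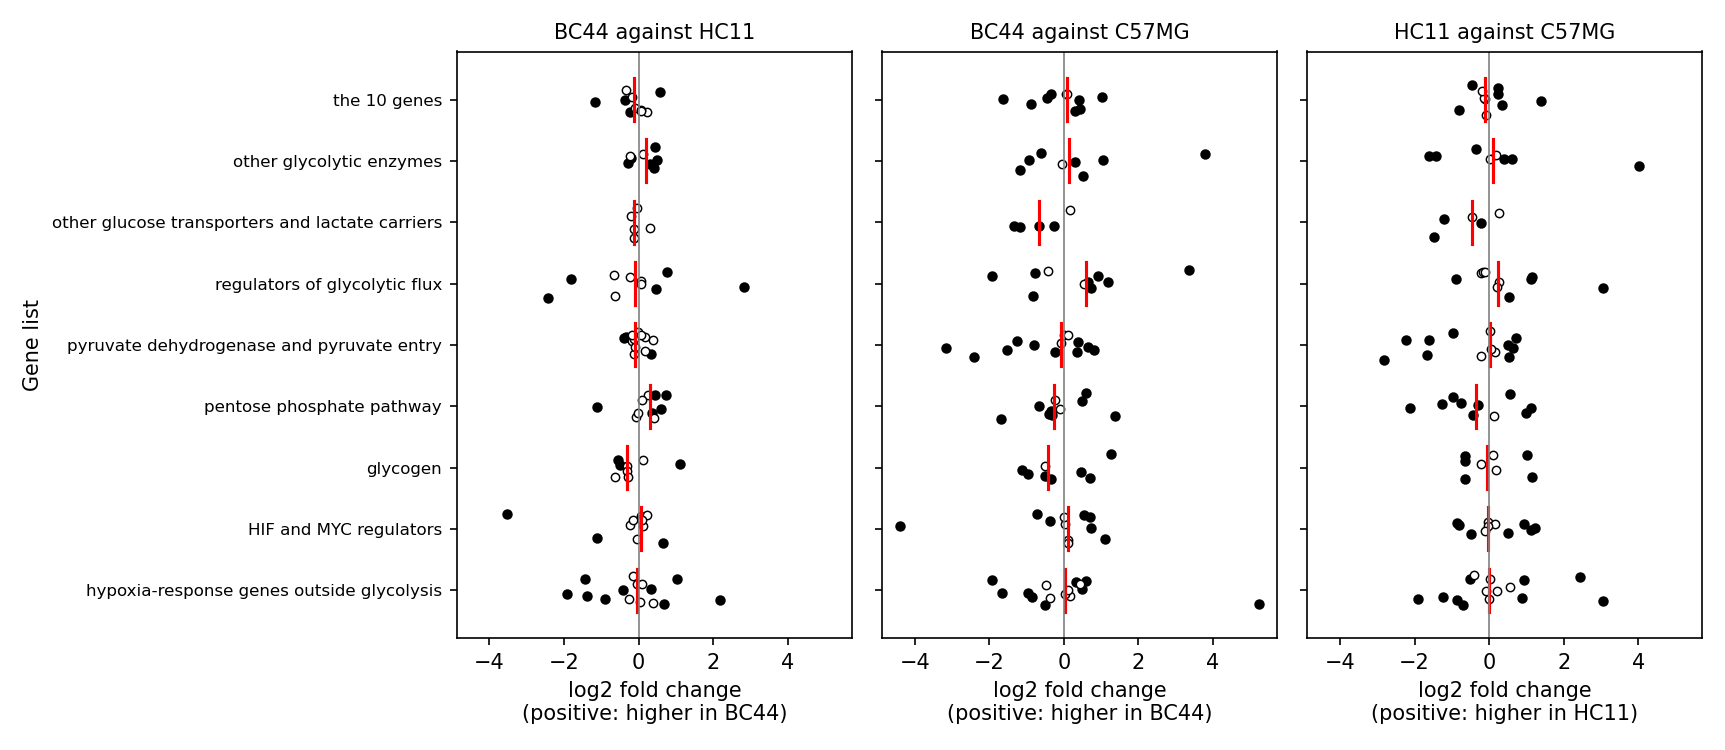
Log2 fold changes of the tested genes of each list, 1 panel per contrast; each point is a gene, filled where its adjusted p-value was under 0.05, the red bar is the list's median, and vertical scatter within a row has no meaning. Genes of every list lie on both sides of 0 in at least 1 contrast, and the widest differences are those of Car12, Egln3, Ldhb, Fbp2, Arrdc4 and Pcx rather than of the 10 genes.

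Genes with the profile most like those of Pfkp, Hk2 and Hk1, the 3 genes with the largest spread between line means, were found by the root mean square difference of centred log2(RPKM + 1) over the 6 libraries. For Pfkp they were Tacc1 (0.08), Myl12b (0.09) and Evi5 (0.09). Tacc1 was at 1.26 and 1.21 RPKM in BC44, at 4.40 and 3.58 in HC11 and at 6.41 and 6.92 in C57MG. For Hk2 they were Cblb (0.11), Ctu2 (0.12) and Nol10 (0.13), and Cblb was at 11.4 in both BC44 libraries, 12.4 and 15.4 RPKM in HC11, and 5.60 and 4.70 in C57MG. For Hk1 they were Dazap2 (0.04), AI837181 (0.04) and Rap2b (0.05), and Rap2b was at 7.84 and 7.87 RPKM in BC44, 8.28 and 8.48 in HC11, and 15.3 in both C57MG libraries. None of them belongs to the glucose pathway lists.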

How the data were processed

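Poly(A) RNA from 3 mouse mammary lines, 2 libraries each, was sequenced with a strand-directional kit, per the labels' protocols. The authors deposited 1 table of RPKM values for 11417 genes; the submitters' processing notes name STAR and the mm9 build, and the counter, annotation and use of strand are not given in the sources used here. Every sample column was mapped by name, and depth was estimated from the steps of low RPKM values (tolerance 0.15 of a read, 73.1% to 80.7% of 141 to 229 values near whole). At a single fixed depth 30% would be near whole by chance. Each depth was chosen by its fit from a range, so the chance share for the chosen depth is higher and was not estimated. RPKM is not a count, and no count test was run.

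Genes with at least 1 RPKM in at least 2 libraries were tested (10759; 658 were not, and 10 of 10 pathway genes passed). limma 3.58.1 in R 4.3.3 was fitted to log2(RPKM + 1) of all 6 libraries with cell line as the only term, trended variance and 3 residual degrees of freedom. Tests were two-sided, with Benjamini-Hochberg adjustment within a contrast and a threshold of 0.05. The script was tested on simulated data. Other steps used Python 3.11.15, numpy 2.4.6, pandas 2.3.3 and matplotlib 3.10.9. Promoters came from RefSeq and exon overlaps from GENCODE M21, both on GRCm38.

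The 10 genes, the lists and the tests were chosen with earlier results of these data known. Named list genes were the remaining single-enzyme steps, isoform partners, lactate carriers, HIF subunits and Myc, and the 3 genes of each list with the largest change among those passing, of which 1 is not reported here. Of the other marker lists, 2 of 9 leukocyte, 2 of 5 endothelial and 1 of 5 adipocyte genes were found by symbol in the deposited table. Their summed RPKM was 1.522 to 21.92, 0.252 to 2.377 and 0.407 to 8.765 per library. Alternatives were a pseudocount of 0.1, no filter, a mean of at least 5 RPKM, quantile and median-ratio scaling, only the 4 libraries compared, no trend, robust variance, a block for the replicate number, and omission of each library in turn.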

Additional observations from a re-analysis of the deposited data

How the results depend on the processing

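Of 18 calls of the 10 genes, 11 held in all 15 alternatives and 7 were lost in some. Over these genes, 450 alternative values gave 412 with the same direction and call, 28 no longer passing, 7 newly passing and 3 reversed. The cause was not tested. Leaving out 1 library gave 3 to 7 of the 10 called in HC11 against C57MG, the 3 without C57MG replicate 1, and 1 to 2 at least 2-fold apart in BC44 against C57MG. Quantile normalization reversed log2 fold changes of Bsg (0.0637) and Slc2a9 (0.0131) in BC44 against HC11, Hif1a (-0.0249) in BC44 against C57MG, and Ldha (-0.0375) and Gapdh (-0.124) in HC11 against C57MG. Leaving out 1 library also reversed some small, uncalled changes. In BC44 against HC11 the values ran from -0.238 to 0.0124 for Slc16a1 (highest without BC44 replicate 1), from -0.0842 to 0.197 for Hif1a (lowest without HC11 replicate 1) and from -0.517 to 0.121 for Slc2a8 (highest without HC11 replicate 1), and BC44 replicate 2 also turned Hif1a (-0.0024) and Slc2a8 (0.0012). In BC44 against C57MG they ran from -0.0138 to 0.152 for Gpi1 (lowest without C57MG replicate 1) and from -0.0252 to 0.0926 for Hif1a (lowest without BC44 replicate 2). In HC11 against C57MG they ran from -0.339 to 0.0730 for Pfkl (highest without HC11 replicate 2) and from -0.163 to 0.118 for Hif1a (highest without HC11 replicate 1). The median of all genes stayed within 0.1 of 0 under each scaling. Hk2 in C57MG had the fewest estimated reads of the 10 genes (808 and 435), and the part of depth in its replicate spread was not tested.

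The replicate numbers are not said to pair libraries, and deviations of same-numbered libraries correlated at 0.354, -0.039 and 0.038 in the 3 contrasts. With the replicate block 5350, 7875 and 7721 genes were called, against 5129, 7713 and 7590 without it, and 4, 8 and 5 of the 10 genes, Ldha in HC11 against C57MG being lost (adjusted p = 0.0515).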
